A study of Mus musculus with 10 samples.

Results

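Mouse embryonic stem (ES) cells were moved from serum into 2i 2 times, and the question asked here was how the second response to 2i differed from the first. The rule took 8 of the 10 RNA-seq libraries of the series, which form 4 groups of 2. Second 2i stands for cells kept for 13 passages in 2i, then 6 passages in serum, then 4 to 5 passages in 2i. Serum return stands for cells kept for more than 13 passages in 2i and then 6 passages in serum. First 2i stands for cells kept for 5 to 6 passages in 2i, and serum for the original culture in serum. The 2 libraries of cells kept in 2i for more than 13 passages are outside the rule. The second response is the log2 fold change of second 2i over serum return, the first response is that of first 2i over serum, and their difference is the second minus the first. It was tested in 14097 of the 24015 genes in the files.

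All cells carried a reporter of Wnt/β-catenin signalling, came from the inner cell mass of the blastocyst, and grew on gelatin with leukaemia inhibitory factor (LIF) in every medium. The 2i medium added a GSK3 inhibitor at 3 µM and PD, which blocks the ERK pathway, at 1 µM, and cells were generally split every 48 h. The label of second 2i gives 13 earlier passages in 2i, where that of serum return gives more than 13, and the labels do not tie second 2i to the sequenced serum return culture. Nothing says either that the 2 libraries of a group were separate cultures, and the p-values below therefore rest on variation among libraries that may be technical alone. The time between the last change of medium and collection is not given in the sources used here. The 2 responses share no library.

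As background, inhibition of GSK3 stabilises β-catenin, which acts with Tcf factors on Wnt target genes. Inhibition of the ERK pathway removes a differentiation signal that ES cells receive from FGF4, and genes induced by ERK, such as Egr1, Fos, the Sprouty genes and the PEA3 factor Etv4, are usually low in 2i. ES cells in 2i are known for lower DNA methylation and lower expression of lineage genes, and cells returned to serum are known to regain a serum-like state.

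Each library held between 18412529 and 27766338 reads counted in genes. Levels are given as CPM (reads scaled to a common library total) over the genes tested, adjusted by the library's trimmed-mean (TMM) factor. The 10 ES cell markers looked at (among them Pou5f1, Nanog and Sox2) were above 0 in every group and summed to 6376 to 7427 CPM per library. Replicate 2 of serum return held 15398 CPM of Rn45s, the ribosomal RNA precursor, and the other 7 libraries 2481 to 5421 CPM; leaving Rn45s out changed no call among the genes named here. In bulk RNA, more cells with a transcript and more RNA per cell cannot be told apart.

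The responses differed in 5683 genes, 40.3% of those tested, at an adjusted p under 0.05 (edgeR quasi-likelihood test, two-sided, Benjamini-Hochberg adjustment). The difference was higher in 2672 genes (19%) and lower in 3011 genes (21.4%), and it was at least 2-fold in 1245 genes (8.83%). The second response was called in 9349 genes (66.3%), as a rise in 33.1% and a fall in 33.3% of genes tested, and the first in 9965 genes (70.7%), as a rise in 35.9% and a fall in 34.8%. Both were called in 7353 genes, in the same direction in 6722 of them, and for 4388 of these 6722 the difference between responses did not pass the test. The median size of the response over all genes tested was 0.41 in the second and 0.47 in the first on the log2 scale. Across genes, which are not independent replicates, the responses had a Pearson r of 0.836 and a Spearman coefficient of 0.741.

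Each called gene was placed in 1 class. In a reversed response both responses passed the test with opposite directions, which held for 631 genes (4.48% of those tested), or for 957 genes with the title series of the libraries as a block. In a blunted response the first response passed and the difference ran against it, which held for 3165 genes (22.5%). In an enlarged response the second response passed and the difference ran with it, which held for 1834 genes (13%). A further 53 called genes had neither response past the test. Of the blunted responses 1727 were rises and 1438 falls, and in 856 of the rises and 734 of the falls the second response did not pass the test at all. Of the enlarged responses 883 were rises and 951 falls, with the first response not past the test in 518 of the rises and 557 of the falls. Of the 1245 differences of at least 2-fold, 196 were reversed, 731 blunted and 308 enlarged. The genes that lead each class below are the 5 with the largest differences among called genes with at least 5 CPM in the highest group, more than 3 counts in every group and 1 sign in all 16 choices of 1 library per group; genes below these limits can have larger differences.

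**Figure D1:**
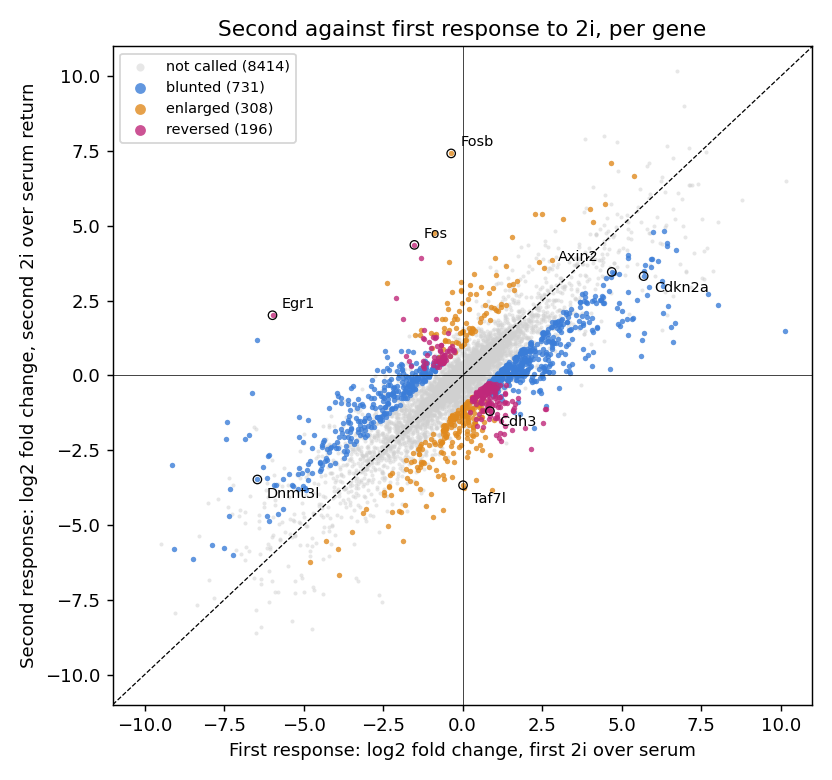
Each point is a gene, with the first response (first 2i over serum) on the horizontal axis and the second response (second 2i over serum return) on the vertical axis, both as log2 fold changes. Grey points are the 8414 genes whose responses did not differ past the test, and coloured points are the 731 blunted, 308 enlarged and 196 reversed genes with a difference of at least 2-fold; points on the dashed line have equal responses. Egr1, Fos and Fosb lie far above the line, and called genes with smaller differences are not drawn.

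Differences between responses moved with the GC content of transcripts. The median difference was -0.19 for the 4665 genes with the lowest GC content, -0.0021 for the 4665 in the middle and 0.17 for the 4665 with the highest, over 13995 genes with a matched transcript. At the lowest GC content 8.47% of genes were called higher and 34.0% lower, and at the highest 29.8% were called higher and 10.9% lower. Replicates of 1 group also differed along GC content: the median deviation of high-GC minus low-GC genes was -0.03 and 0.11 in second 2i, -0.12 and 0.0001 in serum return, -0.15 and -0.04 in first 2i, and 0.05 and 0.18 in serum (log2). With a correction for GC content in each library, 6017 genes were called, of which 668 were reversed, 3343 blunted and 1959 enlarged. The members changed more than these totals: 4734 genes were called both with and without the correction. Of the 631 genes reversed without it, 459 were also reversed with it. The part of GC content in single small differences was not tested.

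Among reversed genes within these limits the largest differences were those of the immediate-early genes Egr1 and Fos, which fell in the first move into 2i and rose in the second. Egr1, a zinc-finger factor induced by ERK signalling, had 116 and 109.5 CPM in second 2i and 28.3 and 27.5 CPM in serum return, against 0.422 and 0.439 CPM in first 2i and 26.6 and 28.4 CPM in serum. Its serum levels overlapped, whereas both second 2i libraries lay above and both first 2i libraries far below them. The second response was 2.01 and the first -5.98, a difference of 7.99 ± 0.17 (SE, log2; edgeR quasi-likelihood, Benjamini-Hochberg adjusted p = 5.84e-18). Fos, a subunit of the AP-1 factor, had 132 and 130.4 CPM in second 2i and 6.92 and 5.69 CPM in serum return, against 1.83 and 1.66 CPM in first 2i and 4.49 and 5.55 CPM in serum. It was highest in both second 2i libraries and lowest in both first 2i libraries. The difference was 5.88 ± 0.20 (SE, log2; edgeR quasi-likelihood, Benjamini-Hochberg adjusted p = 5.11e-14).

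Fosb, a paralog of Fos, was near 0 outside second 2i. Fosb had 39.5 and 38.3 CPM in second 2i and 0.285 and 0.139 CPM in serum return, against 0.141 and 0.0488 CPM in first 2i and 0 and 0.259 CPM in serum. Its second response was 7.42, while its first, at -0.36, did not pass the test, so that it counted as enlarged (difference 7.78 ± 1.38, SE, log2; edgeR quasi-likelihood, Benjamini-Hochberg adjusted p = 1.90e-04). These folds rest on 4 counts in first 2i and 5 in serum, and without serum replicate 2, when the remaining serum library held no count, the call was lost (adjusted p = 0.926, edgeR quasi-likelihood). The level in second 2i does not depend on that.

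3 further genes of that set fell first and rose second. Id3, an inhibitor of helix-loop-helix factors induced by BMP, had 36.0 and 43.0 CPM in second 2i and a mean of 14.0 CPM in serum return, against at most 19.3 CPM in first 2i and 41.1 and 47.7 CPM in serum. Second 2i was near serum, and serum return near first 2i (difference 2.71 ± 0.17, SE, log2). Malat1, an abundant nuclear long noncoding RNA, had the same layout, with 440.3 and 465 CPM in second 2i and 205 and 210.4 CPM in serum return, against a mean of 244 CPM in first 2i and 465 and 558 CPM in serum (difference 2.19 ± 0.10, SE, log2). Slc43a3, a nucleobase transporter, was highest in second 2i at 13.1 and 13.4 CPM and lowest in first 2i at 1.97 and 2.20 CPM, beside 5.67 and 5.14 CPM in serum return and 4.34 and 3.53 CPM in serum.

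Reversals in the other direction, a rise first and a fall second, were found in 310 genes, 133 of them with a difference of at least 2-fold; falls followed by rises numbered 321, with 63 at least 2-fold. The 5 that lead within the limits above were expressed at low levels. Mef2b, a MADS-box factor, had 3.93 and 5.63 CPM in second 2i and 13.2 and 13.3 CPM in serum return, against 9.04 and 10.3 CPM in first 2i and 5.35 and 5.50 CPM in serum. Serum return was highest, and second 2i overlapped serum (difference -2.30 ± 0.21, SE, log2). Atp2b2, a plasma membrane calcium pump, had the lowest level in second 2i at 1.42 and 1.37 CPM, below 3.99 and 3.38 CPM in serum return, and the highest in first 2i at 5.15 and 5.42 CPM, above 2.43 and 2.75 CPM in serum. Cntd1, a cyclin-like protein of meiotic recombination, Thap2, a THAP-domain protein, and Hs3st3b1, a heparan sulfate sulfotransferase, had differences of -2.36, -2.22 and -2.22. Among adhesion molecules Cdh3 (P-cadherin) was of this kind, with 5.29 and 6.73 CPM in second 2i and 13.7 and 13.9 CPM in serum return, against 22.2 and 27.8 CPM in first 2i and 13.6 and 14.0 CPM in serum. The serum groups overlapped, and the 2i groups lay on opposite sides of them.

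**Figure D2:**
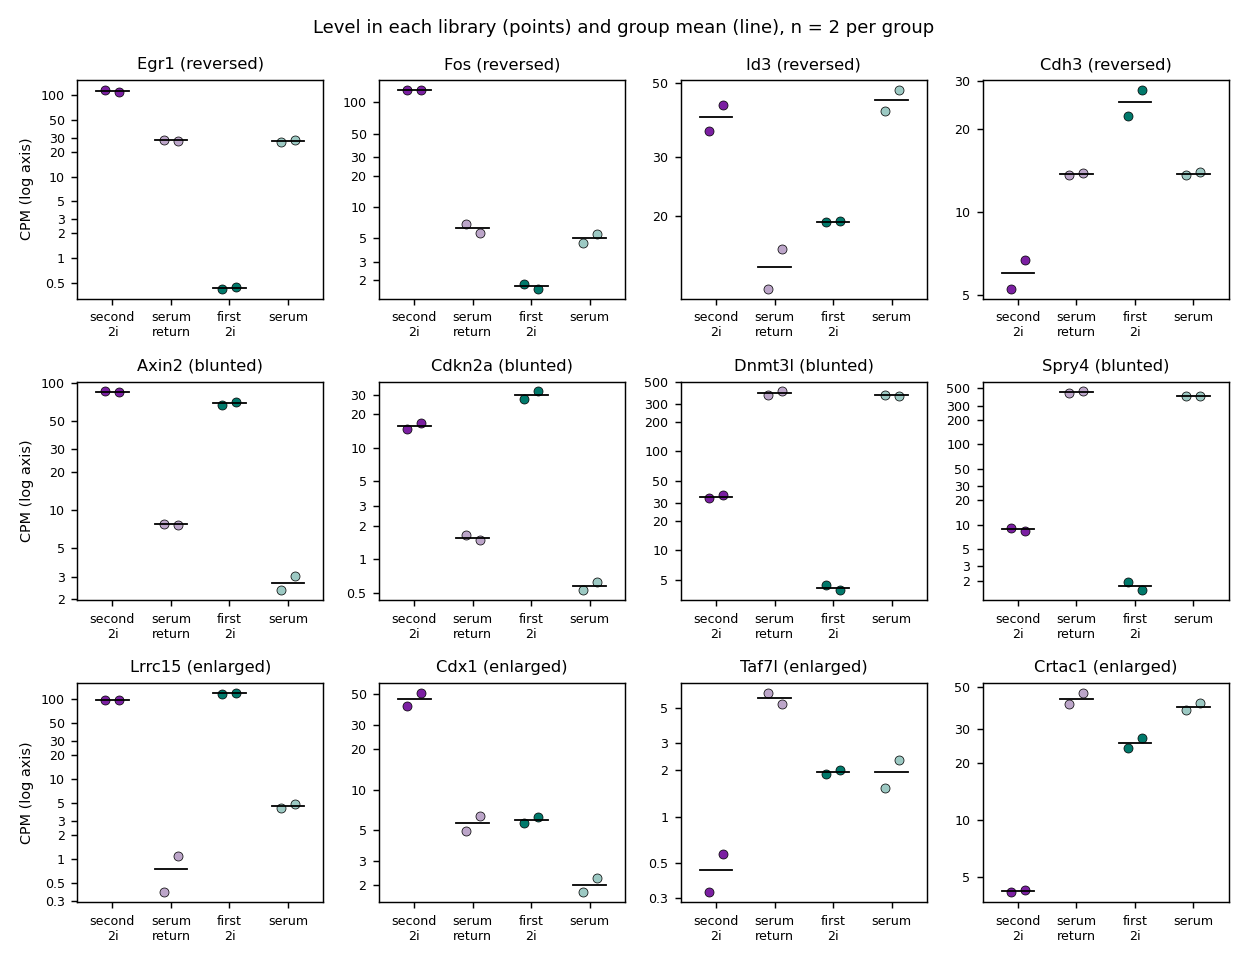
Levels of 12 genes in CPM on log axes, with 1 point per library, a line at the group mean (n = 2) and the groups in the order second 2i, serum return, first 2i and serum. The upper row shows reversed genes, where the step between the left pair of groups runs against the step between the right pair; the middle row shows blunted and the lower row enlarged responses, among them Taf7l, which was at 1.87 and 2.00 CPM in first 2i and 1.53 and 2.33 CPM in serum.

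Within the limits above, blunted rises were led by Calb2, Calr4, Ctnnd2, Dtx4 and Stambpl1. Calb2 (calretinin, a calcium-binding protein) had 0.600 and 0.894 CPM in second 2i and 0.250 and 0.417 CPM in serum return, against 6.00 and 7.13 CPM in first 2i and 0.0955 and 0.156 CPM in serum. The first 2i libraries alone were high (difference -4.46 ± 0.73, SE, log2; edgeR quasi-likelihood, Benjamini-Hochberg adjusted p = 7.22e-05). Calr4 (a calreticulin family member), Ctnnd2 (δ-catenin) and Dtx4 (a Deltex ubiquitin ligase) also rose both times, with second responses of 1.72, 3.16 and 0.88 and first responses of 4.90, 6.28 and 3.78. Stambpl1, a deubiquitinase, had 2.62 and 2.94 CPM in second 2i and 2.46 and 2.68 CPM in serum return, against 7.26 and 9.08 CPM in first 2i and 1.15 and 1.14 CPM in serum. Its first rise passed the test and its second response, at 0.12, did not.

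The blunted falls included Dnmt3l, a catalytically inactive partner of Dnmt3a and Dnmt3b, whose level in second 2i stayed above that in first 2i. Dnmt3l had 33.5 and 36.5 CPM in second 2i and 375 and 404 CPM in serum return, against 4.45 and 3.95 CPM in first 2i and 370.3 and 368 CPM in serum. Both serum groups were alike within 0.08 on the log2 scale, and the 2i groups did not overlap. The second response was -3.48 and the first -6.45, a difference of 2.98 ± 0.11 (SE, log2; edgeR quasi-likelihood, Benjamini-Hochberg adjusted p = 1.37e-13). Myo1f, an unconventional myosin, had 4.53 and 4.94 CPM in second 2i and 10.2 and 10.1 CPM in serum return, against 0.328 and 0.146 CPM in first 2i and 4.30 and 4.62 CPM in serum. Robo4 (a roundabout receptor of endothelium), Rasl11a (a Ras-like GTPase) and Aire (the autoimmune regulator) had second responses of -5.79, -2.05 and -3.43 and first responses of -9.08, -5.15 and -6.15, with 4 to 8 counts in first 2i.

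Within the same limits, enlarged rises were led, after Fosb, by Tlx2, Arhgef26, Lrrc15 and Mgat4c. Tlx2, a homeobox factor, had 19.4 and 25.6 CPM in second 2i and 0.463 and 0.602 CPM in serum return, against 1.36 and 2.64 CPM in first 2i and 0.0955 and 0.623 CPM in serum. Its replicates in the last group differed widely, and the call was lost without serum replicate 2 and without either serum return replicate (adjusted p of 0.628, 0.1 and 0.0616, edgeR quasi-likelihood, Benjamini-Hochberg). Lrrc15, a leucine-rich repeat membrane protein, had 99.1 and 97.3 CPM in second 2i and 0.392 and 1.11 CPM in serum return, against 117 and 119.6 CPM in first 2i and 4.34 and 4.93 CPM in serum. The 2i levels differed little beside the step from serum return, which was the lowest group (difference 2.43 ± 0.26, SE, log2). Arhgef26, a guanine nucleotide exchange factor, had 12.5 and 12.1 CPM in second 2i and 1.56 to 2.39 CPM in the other 6 libraries. Mgat4c, a glycosyltransferase, averaged 5.70 CPM in second 2i and 0.743 CPM in serum return, against 1.74 CPM in first 2i and 1.17 CPM in serum.

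Enlarged falls within these limits were led by Taf7l, Gata6, Calca, Crtac1 and Pla2g7. Gata6, a primitive endoderm factor, had 0.218 and 0.526 CPM in second 2i and 5.85 and 6.06 CPM in serum return, against 0.468 and 0.683 CPM in first 2i and 1.05 and 1.25 CPM in serum. Serum return alone was high, and the 2i groups overlapped (difference -2.98 ± 0.55, SE, log2; edgeR quasi-likelihood, Benjamini-Hochberg adjusted p = 2.46e-04). Crtac1, a cartilage matrix protein, had 4.20 and 4.31 CPM in second 2i and 40.4 and 46.2 CPM in serum return, against 23.9 and 26.9 CPM in first 2i and 37.6 and 41.0 CPM in serum. Here the serum groups overlapped and second 2i was lowest (difference -2.71 ± 0.15, SE, log2). Calca (the calcitonin gene) and Pla2g7 (an acetylhydrolase of platelet-activating factor) had second responses of -6.67 and -4.56 and first responses of -3.90 and -1.94.

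The difference between responses equals the gap between the 2i cultures minus the gap between the serum cultures. Second 2i differed from first 2i in 5424 genes (38.5%), and serum return differed from serum in 4505 genes (32%), or in 2556 without serum return replicate 1 and 2959 without serum replicate 2. Of the 5683 genes with differing responses, 2182 differed only between the 2i cultures, 1487 only between the serum cultures, 1553 in both and 461 in neither. The gap between the 2i cultures was the larger in 3265 of the 5683. Among differences of at least 2-fold it was the larger in 125 of 196 reversed, 470 of 731 blunted and 220 of 308 enlarged responses. Within the blunted class this held for 262 of 318 falls and 208 of 413 rises.

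**Figure D3:**
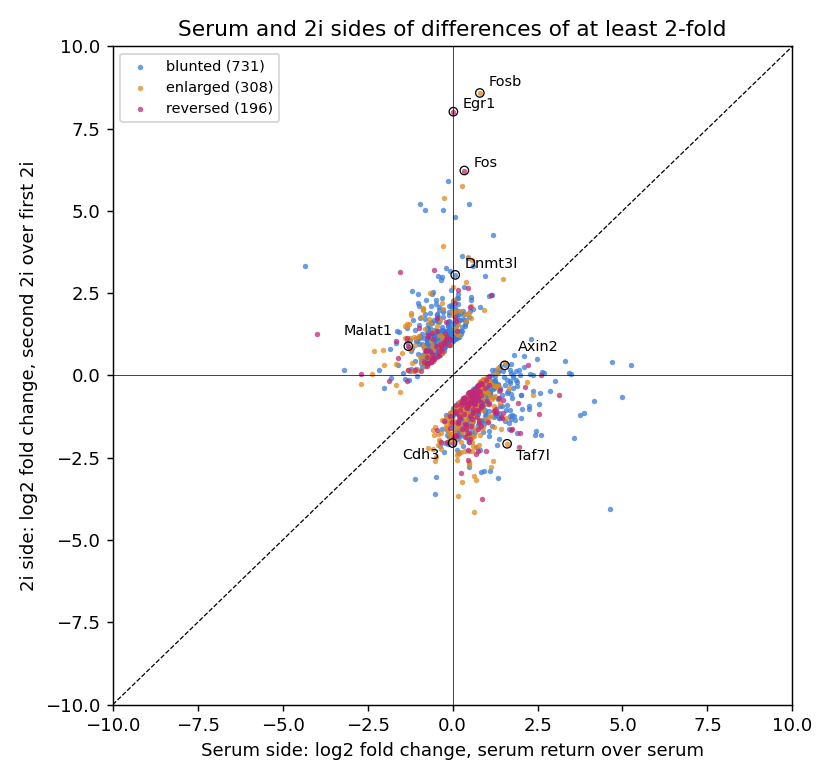
Genes with a called difference of at least 2-fold, by the log2 fold change of serum return over serum on the horizontal axis and that of second 2i over first 2i on the vertical axis; points on the dashed line would have equal responses, and the band around it is empty because of the 2-fold limit. Egr1 and Dnmt3l, at 0.02 and 0.08 on the horizontal axis, differed between the 2i cultures, whereas Axin2, at 1.54 on the horizontal and 0.31 on the vertical axis, differed more between the serum cultures.

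Of 21 tested genes of a list of ERK feedback inhibitors and ERK-induced factors, 14 had a higher difference, against 19% of all genes tested, and none a lower one. Of these 14, 4 were reversed, 9 blunted falls and 1 an enlarged rise. Over all genes tested 4.48% were reversed, 10.2% blunted falls and 6.26% enlarged rises. The count with a lower difference was 1 under GC correction, with the block, without the low-count filter, without first 2i replicate 1 and without serum replicate 2. The median difference of the list was 0.69, against -0.02 over all genes tested. In the first response 20 of the 21 fell, against 34.8% of all genes. In the second 14 fell and 5 rose, against 33.3% and 33.1% of all genes. Spry4, an inhibitor of receptor signalling to ERK, had 9.11 and 8.36 CPM in second 2i and 438 and 458 CPM in serum return, against 1.92 and 1.51 CPM in first 2i and 406 and 406 CPM in serum. Etv4, a PEA3 factor, had 22.4 and 22.2 CPM in second 2i and 272 and 291 CPM in serum return, against 4.50 and 4.73 CPM in first 2i and a mean of 282 CPM in serum. Both were lowest in first 2i with no overlap, and their differences were 2.20 ± 0.15 and 2.27 ± 0.11 (SE, log2). Chosen after their values were seen, Myc and Ccnd1 (cyclin D1) were also blunted falls, with differences of 1.48 and 1.62, while Dusp6, an ERK phosphatase, had responses of -3.25 in the second and -3.44 in the first move, and its difference of 0.19 did not pass the test.

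On the Wnt side, Axin2, the feedback inhibitor of β-catenin, rose both times. It had 85.4 and 85.0 CPM in second 2i and 7.81 and 7.64 CPM in serum return, against 67.0 and 70.7 CPM in first 2i and 2.34 and 3.01 CPM in serum. The second rise, 3.46, was smaller than the first, 4.69, with the highest level in second 2i and with serum return above serum (difference -1.23 ± 0.16, SE, log2; edgeR quasi-likelihood, Benjamini-Hochberg adjusted p = 4.73e-06). Of 19 Wnt targets tested, 5 had a higher and 1 a lower difference, a called share of 31.6% against 40.3% of all genes, and the higher count was 3 by DESeq2 and without serum replicate 2. Cdx1, a caudal homeobox factor, had 41.2 and 51.2 CPM in second 2i and 4.96 and 6.34 CPM in serum return, against 5.71 and 6.30 CPM in first 2i and 1.77 and 2.23 CPM in serum, a second rise of 3.05 and a first of 1.59. Its paralog Cdx2 had 1.09 and 1.42 CPM in second 2i and at most 0.0926 CPM elsewhere, and its call was lost without 6 of the 8 libraries in turn. Of 31 Wnt pathway components 10 had a higher and 2 a lower difference, a called share of 38.7%, close to that of all genes, and the lower count was 4 under GC correction. Porcn, which lipid-modifies Wnt ligands, had 16.9 and 18.9 CPM in second 2i and 26.6 and 27.4 CPM in serum return, against 3.75 and 4.20 CPM in first 2i and 24.0 and 23.9 CPM in serum. The ligand gene Wnt11 averaged 2.79 CPM in second 2i and 2.53 CPM in serum return, against 0.644 CPM in first 2i and 2.74 CPM in serum.

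BMP and Nodal pathway genes were called in both directions, with 5 of 17 higher and 5 lower, against 19% and 21.4% of all genes. Id1 and Id2, helix-loop-helix inhibitors like Id3, fell both times and less in the second response. Id1 had 4.04 and 5.00 CPM in second 2i and 129 and 136 CPM in serum return, against 2.81 and 2.59 CPM in first 2i and 183 and 188 CPM in serum. Id2 averaged 1.20 CPM in second 2i and 8.79 CPM in serum return, against 0.957 CPM in first 2i and 26.8 CPM in serum. Bmp4, a BMP ligand, was a blunted fall as well, with a second response of -1.92 and a first of -2.66.

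Pluripotency factors changed by small amounts. Pou5f1 (Oct4) counted as reversed with a second response of 0.18 and a first of -0.18: it had 1312 and 1366 CPM in second 2i and 1156 and 1212 CPM in serum return, against 1054 and 1077 CPM in first 2i and 1198 and 1222 CPM in serum. Sox2 had a difference of -0.22, lost without first 2i, serum return or second 2i replicate 2, and that of Nanog, -0.15, did not pass the test (adjusted p = 0.0692, edgeR quasi-likelihood, Benjamini-Hochberg) but did with the block (adjusted p = 0.0024), and with both the block and GC correction it did not (-0.06, adjusted p = 0.254). Esrrb, an orphan nuclear receptor, had a difference of 0.18 (adjusted p = 0.0495, edgeR quasi-likelihood, Benjamini-Hochberg), which was 0.04 under GC correction (adjusted p = 0.536). Of 28 such genes 10 were higher and 8 lower, against 19% and 21.4% of all genes, and the lower count was 4 without serum return replicate 2 and 5 without second 2i or first 2i replicate 2. Larger steps were those of Nr0b1 (Dax1), with 179.9 and 182 CPM in second 2i and 99.8 and 107 CPM in serum return, against 101 and 113 CPM in first 2i and 172 and 181 CPM in serum. The homeobox factor Gbx2 had 16.5 and 16.6 CPM in second 2i and 121 and 134 CPM in serum return, against 4.26 and 4.10 CPM in first 2i and 117 and 127 CPM in serum. Dppa3 (Stella), which counters maintenance methylation, had 1.09 and 1.74 CPM in second 2i and 0.606 and 0.185 CPM in serum return, against 12.2 and 13.0 CPM in first 2i and 1.15 and 0.674 CPM in serum; its difference of -2.03 did not pass without serum return replicate 1 (-0.87, adjusted p = 0.507, edgeR quasi-likelihood).

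The de novo DNA methyltransferases went different ways. Dnmt3b had 58.6 and 57.8 CPM in second 2i and 101 and 100.2 CPM in serum return, against 30.2 and 27.2 CPM in first 2i and 148 and 144 CPM in serum, a second response of -0.79 and a first of -2.35. Dnmt3a had 16.4 and 17.6 CPM in second 2i and a mean of 51.9 CPM in serum return, against 22.7 and 24.5 CPM in first 2i and 49.6 and 51.7 CPM in serum, so that its fall was larger in the second response (difference -0.51 ± 0.12, SE, log2). Tet2, which oxidises 5-methylcytosine, had 284 and 299 CPM in second 2i and 321 and 335 CPM in serum return, against 120.2 and 132 CPM in first 2i and 271 and 295 CPM in serum. Of 19 genes of DNA methylation and demethylation 7 were higher and 3 lower, and the lower count was 6 under GC correction and 5 with the block. Of 18 genes of H3K9 methylation and retroelement repression 6 were higher and 4 lower, and of 24 Polycomb subunits 4 were higher and 6 lower; the lower counts fell to 2 and 3 without serum return replicate 1. Among all genes tested 19% were higher and 21.4% lower. The shares called were 52.6% for DNA methylation, 55.6% for H3K9 methylation and 41.7% for Polycomb, against 40.3% of all genes. The Polycomb share was thus close to that of all genes. Trim28, a corepressor of retroelements, was reversed, at 2041 and 2251 CPM in second 2i and 1625 and 1839.7 CPM in serum return, against 1588 and 1704 CPM in first 2i and 2051 and 2212 CPM in serum.

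**Figure D4:**
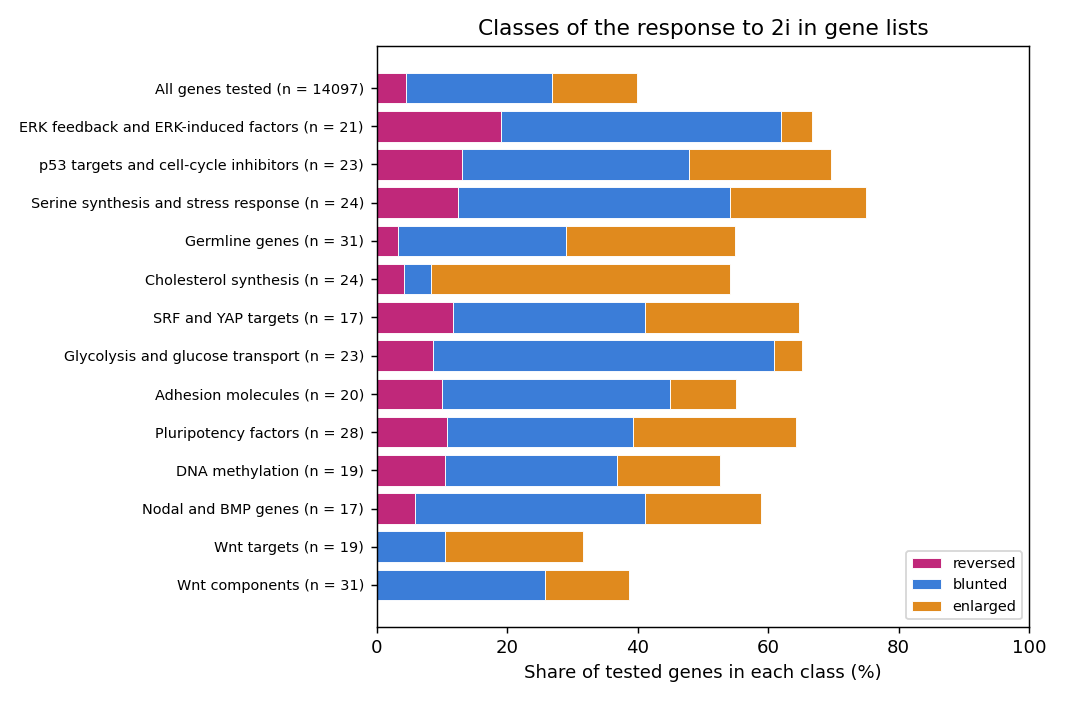
Share of tested genes in the reversed, blunted and enlarged class for all 14097 genes and for 13 gene lists, with the number of genes tested in each list in brackets. Of 24 cholesterol synthesis genes 11 were enlarged rises, against 6.26% of all genes, and of 21 ERK-related genes 9 were blunted falls, against 10.2%. The lists were chosen with earlier results of these data known and are described without a test.

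Of 23 cell-cycle inhibitors and p53 targets tested, 14 had a lower difference, against 21.4% of all genes, and 2 a higher one, which became 0 under GC correction and 1 without any one of first 2i replicate 1, serum return replicate 1, serum replicate 2 and second 2i replicate 2. The list's median difference was -0.60. Cdkn1a (p21) had 123 and 137 CPM in second 2i and 30.6 and 33.9 CPM in serum return, against 219 and 220.3 CPM in first 2i and 19.3 and 18.0 CPM in serum. Cdkn2a, the locus of p16 and p19Arf, had 14.9 and 16.6 CPM in second 2i and 1.64 and 1.48 CPM in serum return, against 27.6 and 32.1 CPM in first 2i and 0.525 and 0.623 CPM in serum. For both, second 2i lay below first 2i and serum return above serum (differences -1.54 ± 0.10 and -2.37 ± 0.31, SE, log2). Pmaip1 (Noxa), a pro-apoptotic p53 target, was an enlarged fall, with 6.16 and 6.15 CPM in second 2i and 156 and 145 CPM in serum return, against 14.0 and 12.4 CPM in first 2i and 122 and 111 CPM in serum. Trp53 and Bax were the 2 higher members, named after their values were seen, with differences of 0.18 and 0.48.

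Serine synthesis genes were read together with those of the integrated stress response, in which ATF4 induces amino acid genes. Of 24 genes tested 17 had a lower difference, against 21.4% of all genes, and 1, Atf4 itself at 0.37, a higher one, with 10 blunted, 5 enlarged and 3 reversed; the higher count was 2 with the block and without serum replicate 2. Over all genes tested 22.5% were blunted, 13% enlarged and 4.48% reversed. The median difference of the list was -0.35. Aldh1l2, a mitochondrial folate dehydrogenase, had 5.35 and 5.73 CPM in second 2i and 7.20 and 5.55 CPM in serum return, against 12.3 and 12.1 CPM in first 2i and 2.63 and 2.80 CPM in serum. Vldlr, a lipoprotein receptor, and Ddit4, an mTORC1 inhibitor, were reversed: Ddit4 had 57.9 and 58.6 CPM in second 2i and 89.1 and 102 CPM in serum return, against 71.7 and 70.8 CPM in first 2i and 45.1 and 45.4 CPM in serum. Asns, asparagine synthetase, an abundant member named after its values were seen, had 1081 and 1066 CPM in second 2i and 647 and 639 CPM in serum return, against 1168 and 1163 CPM in first 2i and 401 and 377 CPM in serum. The cystine transporter gene Slc7a11 averaged 0.993 CPM in second 2i and 0.559 CPM in serum return, against 1.36 CPM in first 2i and 3 counts over both serum libraries.

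Promoters of the stress list were read for TGATGNAA, a motif known for C/EBP and ATF factors, on both strands of a RefSeq window (build GRCm38.p6) from 250 bases before to 50 after the start. Only the first listed window of each gene was counted. Of 21 members with a window 6 (28.6%) held it there, against 2.20% of the tested genes with a window and 3.97% of all 32851 windows. A window of Vldlr at another start, not counted, held it too. Of the genes tested 78.7% had a window, below the 80% needed, so a comparison of the 3 classes would be void. The Asns window is shown because it holds the motif in a gene whose rise was blunted. It lies at chr6:7693160-7693459 on the minus strand, and the capitals mark the match 23 bases before the start.
Asns: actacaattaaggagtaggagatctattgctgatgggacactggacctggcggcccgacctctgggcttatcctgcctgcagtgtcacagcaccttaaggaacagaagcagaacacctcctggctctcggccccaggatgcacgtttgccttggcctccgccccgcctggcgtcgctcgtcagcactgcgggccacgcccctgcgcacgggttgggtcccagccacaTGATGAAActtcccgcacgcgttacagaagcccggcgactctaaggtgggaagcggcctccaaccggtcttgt

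Germline genes are known to be silenced by promoter methylation in somatic cells. Of 31 tested 14 had a lower difference, against 21.4% of all genes, 3 a higher one and 14 did not pass, with 8 blunted, 8 enlarged and 1 reversed. Over all genes tested 22.5% were blunted, 13% enlarged and 4.48% reversed. In the second response 12 of the germline genes rose and 13 fell, against 33.1% and 33.3% of all genes. Taf7l, an X-linked TFIID subunit of germ cells, had 0.327 and 0.578 CPM in second 2i and 6.27 and 5.37 CPM in serum return, against 1.87 and 2.00 CPM in first 2i and 1.53 and 2.33 CPM in serum. It fell in the second response, at -3.67, and did not pass the test in the first, at 0.01 (difference -3.68 ± 0.43, SE, log2; edgeR quasi-likelihood, Benjamini-Hochberg adjusted p = 1.39e-06). Dazl, an RNA-binding protein of germ cells, rose both times, with 29.5 and 27.2 CPM in second 2i and 16.6 and 15.3 CPM in serum return, against 36.4 and 30.4 CPM in first 2i and 7.45 and 6.64 CPM in serum. Sycp2, of the synaptonemal complex, had a difference of -1.37, lost under DESeq2, GC correction and in 6 of 8 leave-outs. Its partner Sycp3, named after its values were seen, was an enlarged fall too, with a difference of -1.16.

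CACGTG, an E-box read on its own since it is the same on both strands, stood in 13 of the 26 germline promoters with a window (50%), counted in the first listed window of each gene, against 10.3% of the tested genes with a window and 7.15% of all windows. Of the 13 that held it 9 were called, and of the 13 that did not 6, against 40.3% of all genes. Called holders were found among reversed, blunted and enlarged genes. The Taf7l window is shown because Taf7l had the largest enlarged fall among genes named by the rule above; it lies at chrX:134476441-134476740 on the minus strand of GRCm38.p6, and the capitals mark the E-box 49 bases before the start.
Taf7l: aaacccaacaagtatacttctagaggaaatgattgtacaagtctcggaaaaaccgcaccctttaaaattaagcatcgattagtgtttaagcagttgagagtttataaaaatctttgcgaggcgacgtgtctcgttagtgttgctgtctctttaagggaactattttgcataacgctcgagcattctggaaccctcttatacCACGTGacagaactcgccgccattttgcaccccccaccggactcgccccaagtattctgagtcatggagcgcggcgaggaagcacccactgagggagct

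Of 7 Y-linked genes 5 (71.4%) were blunted rises, a class that held 12.3% of all genes tested. Ddx3y, an RNA helicase, had 158 and 138 CPM in second 2i and 111 and 102 CPM in serum return, against 190.3 and 174 CPM in first 2i and 91.7 and 85.8 CPM in serum. Uba1y, a ubiquitin-activating enzyme, had 35.5 and 25.8 CPM in second 2i and 13.8 and 12.6 CPM in serum return, against 34.4 and 32.8 CPM in first 2i and 9.64 and 8.56 CPM in serum. Both rose each time, with serum return above serum. Of 21 maternally expressed imprinted genes 3 were higher and 7 lower, with none higher without first 2i replicate 1, and of 24 paternally expressed ones 3 were higher and 5 lower, with 6 higher under GC correction and 5 with the block. The shares called, 47.6% and 33.3%, lie on either side of the 40.3% of all genes. Plagl1, a zinc-finger factor, had 246 and 214 CPM in second 2i and 38.8 and 35.7 CPM in serum return, against 255 and 266 CPM in first 2i and 18.3 and 18.2 CPM in serum. Kcnq1ot1, a long noncoding RNA that silences its neighbours in cis, was reversed, with 3.33 and 3.47 CPM in second 2i and 2.50 and 2.41 CPM in serum return, against 4.08 and 3.51 CPM in first 2i and 7.97 and 9.96 CPM in serum. The original serum culture alone was high. Meg3, a maternally expressed long noncoding RNA, was reversed the other way, with a second response of -0.37 and a first of 0.25. H19 averaged 0.161 CPM in second 2i and 2.29 CPM in serum return, against 1 count in first 2i and 4.68 CPM in serum.

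Cholesterol synthesis genes are targets of SREBP. Of 24 tested 13 had a higher difference, against 19% of all genes, none a lower one and 11 did not pass. The 13 were 11 enlarged rises, a class that held 6.26% of all genes tested, 1 blunted fall and 1 reversal. The higher count was 10 to 14 when single libraries were left out. The median difference was 0.25. Mvk, mevalonate kinase, had 57.1 and 62.6 CPM in second 2i and 29.4 and 32.9 CPM in serum return, against 42.4 and 41.9 CPM in first 2i and 38.6 and 36.8 CPM in serum. Mvd, a decarboxylase of the same pathway, had 75.3 and 84.3 CPM in second 2i and 46.1 and 50.8 CPM in serum return, against 59.8 and 65.1 CPM in first 2i and 62.3 and 67.1 CPM in serum. Both were highest in second 2i and lowest in serum return.

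Of 23 glycolysis genes 10 were higher and 5 lower, against 19% and 21.4% of all genes, with 8 blunted falls, a class that held 10.2% of all genes, and the higher count was 7 without serum return replicate 1 or serum replicate 2. Slc16a3, the lactate exporter MCT4, had 13.2 and 11.8 CPM in second 2i and 113 and 125 CPM in serum return, against 4.73 and 5.37 CPM in first 2i and 132 and 138 CPM in serum. Pfkl, liver phosphofructokinase, had 118 and 134 CPM in second 2i and 412 and 451 CPM in serum return, against 69.8 and 68.2 CPM in first 2i and 441 and 472 CPM in serum. Pdk1, which inhibits pyruvate dehydrogenase, ran the other way, with 56.5 and 56.2 CPM in second 2i and 534 and 540.3 CPM in serum return, against 105 and 96.9 CPM in first 2i and 471 and 476 CPM in serum. Gapdh is left aside, since its many pseudogenes make its count uncertain.

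Targets of SRF and YAP, which respond to serum and to the actin skeleton, included 8 of 17 with a higher and 3 with a lower difference, against 19% and 21.4% of all genes. Ctgf had 49.8 and 48.6 CPM in second 2i and 19.3 and 17.1 CPM in serum return, against a mean of 21.8 CPM in first 2i and 29.1 and 31.3 CPM in serum. Cyr61 had 28.4 and 26.8 CPM in second 2i and 7.63 and 7.22 CPM in serum return, against 8.85 and 8.30 CPM in first 2i and 9.07 and 10.3 CPM in serum. For these secreted matrix proteins second 2i was the highest of the 4 groups. Actb, β-actin, was reversed, with a second response of 0.71 and a first of -0.29. Anxa1, annexin A1, ran the other way as a blunted rise, with a second response of 4.44 and a first of 6.43. It averaged 12.8 CPM in second 2i and 0.591 CPM in serum return, against 9.04 CPM in first 2i and 0.0975 CPM in serum. Its difference of -1.99 rests on 4 counts in serum and was -1.49 without serum replicate 2.

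Of 8 targets and partners of the aryl hydrocarbon receptor 4 were lower and 1 higher, with 2 lower without serum return replicate 1. Among all genes tested 21.4% were lower and 19% higher. Nqo1, a quinone reductase, had 88.2 and 85.0 CPM in second 2i and 27.1 and 25.5 CPM in serum return, against 175 and 169 CPM in first 2i and 38.5 and 33.2 CPM in serum. Cyp1a1, the classical target, had 0.600 and 0.210 CPM in second 2i and 0.214 and 0.0463 CPM in serum return, against 7.17 and 6.25 CPM in first 2i and no count in serum, and its call was lost without serum return replicate 1 (adjusted p = 0.0651, edgeR quasi-likelihood, Benjamini-Hochberg). Of 20 adhesion genes 4 were higher and 7 lower, with 2 higher without first 2i replicate 1. Of 12 interferon-related genes 2 were higher and 3 lower. The shares called were 55% for adhesion and 41.7% for interferon-related genes, the latter close to the 40.3% of all genes. Aim2, a sensor of DNA, had 108 and 103 CPM in second 2i and 16.2 and 14.4 CPM in serum return, against 172 and 162 CPM in first 2i and 5.20 and 3.89 CPM in serum, a blunted rise with a difference of -2.42. Oas1a, an antiviral synthetase, was an enlarged rise, with a second response of 2.09 and a first of 0.73.

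Markers of other lineages gave no common direction. Of the endoderm, trophectoderm and neural genes tested 44.4%, 40% and 46.2% were called, near the 40.3% of all genes. Among all genes 19% were higher and 21.4% lower. Of 18 endoderm genes 5 were higher and 3 lower, with 6 lower under GC correction and 5 with the block, and the 23 markers summed to 2314 to 2337 CPM in second 2i and 2152 to 2217 CPM in serum return, against 2085 to 2222 CPM in first 2i and 2287 to 2418 CPM in serum. In the second response 11 of the 18 fell, against 33.3% of all genes, and 5 rose, against 33.1%, with a median of -1.04. In the first 10 fell, against 34.8%, and 4 rose, against 35.9%, with a median of -0.33. The sums, which were close in all groups, do not show these falls. Col4a1, a basement membrane collagen, had 2.89 and 2.31 CPM in second 2i and 158 and 175 CPM in serum return, against 0.843 and 0.830 CPM in first 2i and 117 and 135 CPM in serum. Sox7, an endoderm factor, had an enlarged fall, with a second response of -6.22 and a first of -4.79, and its call was lost without second 2i replicate 2. Of 15 trophectoderm genes 3 were higher and 3 lower, and of 13 neural genes 4 were higher and 2 lower. Tfap2c, an AP-2 factor of trophectoderm and germ cells, had 66.8 and 67.8 CPM in second 2i and 13.6 and 16.6 CPM in serum return, against 95.9 and 93.4 CPM in first 2i and 42.0 and 45.9 CPM in serum. Stmn2, a neuronal regulator of microtubules, had 216 and 196 CPM in second 2i and 12.6 and 14.5 CPM in serum return, against 241 and 229.8 CPM in first 2i and 7.21 and 5.65 CPM in serum. Its difference was lower, at -1.25, whereas those of Nefm, Ina and Nes were higher, at 1.57, 1.48 and 0.91. The call of Nefm was lost under GC correction and in several leave-outs of single libraries. Neural markers summed to 339 to 350.0 CPM in second 2i and 123 to 137 CPM in serum return, against 323 to 335 CPM in first 2i and 121 to 124 CPM in serum, with Olig2, Dcx and Pax3 at 0 in all 4 groups. Stmn2 made up most of the sums in both 2i groups, with means of 206 CPM in second 2i and 235 CPM in first 2i. The 13 neural genes tested had a median response of -0.79 in the second and -0.38 in the first move. In the second 5 rose and 5 fell, and in the first 5 rose and 7 fell. Among all genes tested 33.1% rose and 33.3% fell in the second, and 35.9% rose and 34.8% fell in the first.

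Fibroblast markers summed to 190 to 195 CPM in second 2i and 410 to 424 CPM in serum return, against 324 to 337 CPM in first 2i and 473 to 485 CPM in serum; 2 of 10 tested were higher and 1 lower. Vim, vimentin, made up most of these sums. It had 168 and 176 CPM in second 2i and 341 and 356 CPM in serum return, against 314 and 327 CPM in first 2i and 417 and 427 CPM in serum. Its difference was lower, at -0.62, and the 2 higher genes were Prrx2, at 2.64, and Col5a1, at 1.61. Prrx2 had 5 counts in first 2i, and its call was lost without replicate 1 of first 2i or of second 2i. Of 13 blood and endothelial genes 2 were higher and 2 lower. Pecam1, an adhesion molecule also present in ES cells, had 79.1 and 83.7 CPM in second 2i and 71.8 and 68.2 CPM in serum return, against 116 and 126 CPM in first 2i and 49.8 and 48.1 CPM in serum. Of 14 Hox genes 3 were higher and 2 lower, with 1 higher without either serum return library. The shares called were 30% for fibroblast, 30.8% for blood and endothelial and 35.7% for Hox genes, against 40.3% of all genes. The part of other cell types in these differences was not tested.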

How the data were processed

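The authors deposited 1 table of raw read counts per gene for each library, and the submitters' processing notes name genome build mm9 and, in no stated order, HTSeq 0.5.4p5, DESeq2 without a version, TopHat2 2.0.4 and CASAVA 1.8.2. For annotation, strand setting and layout nothing was stated, so genes that overlap, have an antisense partner or have near-identical copies are uncertain. The last 5 rows of each table name no gene and were left out; they held 45.2 to 48.8% of all records, mostly reads placed at more than 1 site (33.4 to 36.5%).

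The 8 libraries were fitted together by group with edgeR 4.0.16 in R 4.3.3 (TMM factors, filterByExpr with a minimum count of 10 and a total of 15, robust quasi-likelihood fit with 4 residual degrees of freedom), and p-values were adjusted over the 14097 genes by Benjamini-Hochberg. No gene list was tested as a set. The members and lists were chosen with earlier results of these data known. Genes were named by rule: per class and direction the 5 largest differences with at least 5 CPM in the highest group, more than 3 counts in every group and 1 sign in all 16 choices of 1 library per group, and per list up to 4 members; 10 further genes were always given, and others are marked as chosen after their values were seen. Counts limit precision: 3 counts over a group correspond to 0.0604 to 0.0803 CPM, and these limits cover counting error only. Tested on simulated data for the difference between responses, the fit recovered 95 of 100 genes changed 2-fold and 78 of 100 changed 1.5-fold, with 15 false calls among 13816 unchanged genes. Genes low in any group were left out of those changed. The simulated libraries were independent, with the spread fitted to these data and without shared deviations of a title series or trends with GC content. These numbers therefore do not give the accuracy of the calls above.

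The sample titles form 2 series, LEM and MLE, with 1 library of each group in each. Libraries of the same series deviated together from their group means (r of 0.227 to 0.346 across genes for the 6 pairs of groups), and the series was used as a block in an alternative. Other alternatives were RLE size factors, no filter, DESeq2 1.42.0, all 10 libraries, Rn45s left out and each library left out; the list counts and the GC correction were added after seeing the data. Promoter windows come from RefSeq (GRCm38.p6), and GC content from the longest matched transcripts.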

Additional observations from a re-analysis of the deposited data

Results flagged for a closer look

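The responses themselves differed between the first and the second move into 2i by the test of the difference (edgeR quasi-likelihood, Benjamini-Hochberg), which gave 631 reversed, 3165 blunted and 1834 enlarged responses. Below are the 5 genes with the largest called differences of each kind among those with at least 5 CPM in the highest group, more than 3 counts in every group and 1 sign in all 16 choices of 1 library per group, as log2 differences of the second minus the first response. Genes outside these limits had larger ones in some classes, such as Ahrr (-3.75) among blunted rises and Slc22a18 (-3.19) among enlarged falls. Among falls followed by rises these were 7.99 for Egr1, 5.88 for Fos, 2.71 for Id3, 2.21 for Slc43a3 and 2.19 for Malat1. Among rises followed by falls they were -2.44 for Atp2b2, -2.36 for Cntd1, -2.30 for Mef2b, -2.22 for Thap2 and -2.22 for Hs3st3b1. Blunted rises were led by Calb2 (-4.46), Calr4 (-3.18), Ctnnd2 (-3.12), Dtx4 (-2.90) and Stambpl1 (-2.71). Blunted falls were led by Robo4 (3.29), Rasl11a (3.10), Myo1f (3.09), Dnmt3l (2.98) and Aire (2.72). Enlarged rises were led by Fosb (7.78), Tlx2 (2.92), Arhgef26 (2.44), Lrrc15 (2.43) and Mgat4c (2.39), and enlarged falls by Taf7l (-3.68), Gata6 (-2.98), Calca (-2.77), Crtac1 (-2.71) and Pla2g7 (-2.62).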

How the results depend on the processing

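With the title series as a replicate block 7030 genes differed between responses and reversed responses numbered 957, against 631 without it. Leaving out single libraries gave 2556 to 4491 genes that differed between serum return and serum; the count was 2556 without serum return replicate 1 and 2959 without serum replicate 2. In the same leave-outs 4477 to 5258 genes differed between responses, 1035 to 1225 of them at least 2-fold, with 424 to 592 reversed, 2607 to 2901 blunted and 1350 to 1723 enlarged. DESeq2 called 4469 genes, with 421 reversed, 2543 blunted and 1428 enlarged. Under GC correction 4734 of the 6017 calls were shared with the 5683 above, all of the same sign. Of the 140 genes named by rule 139 were called, none changed sign under the alternatives run, and 110 kept their call in all of them; the block changed 1 call among them, that of Nanog, which did not pass with block and GC correction together. Calls lost most often were those of low-count genes such as Cdkn2b, Frk and Phlda2. The cause of these changes was not tested. Depth limits the genes with 3 or fewer counts in a group, 435 of those tested.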

Other observations

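The 2 libraries kept in 2i for more than 13 passages entered no comparison. They had 2.79 and 2.97 CPM of Egr1, 2.79 and 3.71 CPM of Fos and 0.237 and 0.424 CPM of Fosb, all below second 2i. Other genes, chosen after their values were seen, were higher in these libraries than in both second 2i and first 2i. Among them were Etv4, at 136 and 142 CPM, and Dnmt3l, at 83.3 and 84.6 CPM. Spry4 and Dnmt3b were of this kind too. Cyp1a1 stood there at 51.7 and 48.6 CPM, Nefm, a neurofilament subunit, at 131 and 123 CPM, and Kdm5d, a Y-linked histone demethylase, at 13.4 and 13.4 CPM. Cdh22, a cadherin, had no count in either. By chromosome, the median difference between responses was -0.19 over 494 tested genes of the X chromosome and -0.19 over 505 of chromosome 13.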
